A study of Mus musculus with 6 samples.

Results

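The interferon regulatory factors were followed in SCC7, a tumour cell line derived from a mouse squamous carcinoma. The genes were chosen by symbol alone, as the members Irf1, Irf2, Irf3, Irf4, Irf5, Irf7, Irf8 and Irf9 of the deposited table, which gave 8 of its 17030 genes. RNA was sequenced from 3 untreated (control) and 3 irradiated samples, for which the treatment protocol names radiotherapy at 9 Gy. Both groups were kept in high glucose medium with fetal bovine serum. Every library is dated day 0, and how long after irradiation the cells were collected is not given in the labels. The samples are cultured cells of 1 line, and nothing in the labels says that the 3 samples of a group came from independent cultures. The p-values therefore reflect only the variation among these samples, which may be technical.

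Interferon regulatory factors (IRFs) are transcription factors that share an N-terminal DNA-binding domain and recognise repeats of the bases GAAA. IRF3 and IRF7 wait in the cytoplasm until the kinases TBK1 and IKK-epsilon phosphorylate them downstream of nucleic acid sensors, and then switch on type I interferon genes. Secreted interferon signals back through JAK kinases to STAT proteins, among them STAT2, which join IRF9 in the complex ISGF3 and bind the interferon-stimulated response element (ISRE). IRF1 activates and IRF2 mostly antagonises at overlapping sites, IRF5 acts downstream of Toll-like receptors, and IRF4 and IRF8 are best known from lymphoid and myeloid cells.

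Values are FPKM, fragments scaled to transcript length and to library size, so levels of different genes can be set side by side. The sum of FPKM per library ran from 693961 to 982553 in controls and from 652691 to 663489 in irradiated samples, and the number of reads behind them is unknown. Controls varied more than irradiated libraries, with a median per-gene SD of log2(FPKM + 1) of 0.30 against 0.08. Control 3 stood apart, with a correlation across genes of 0.956 with control 1, 0.928 with control 2 and 0.960 to 0.966 with the irradiated libraries. Controls 1 and 2 correlated at 0.989. What sets control 3 apart was not tested. The 11103 genes that reached 1 FPKM in 3 or more libraries entered limma as log2(FPKM + 1), and a gene was called at a Benjamini-Hochberg adjusted p below 0.05 over all of them. The median log2 fold change of all tested genes was 0.17, and -0.03 once libraries were rescaled by trimmed means of log ratios.

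Levels in irradiated cells were set against those in control cells to ask which members respond to radiation. Irf7, Irf9, Irf5 and Irf1 were called higher in irradiated cells, with log2 fold changes of 5.36, 2.90, 1.39 and 1.58. Irf2 had a positive and Irf3 a negative difference, and neither passed the test. Irf4 and Irf8 stayed below 0.3 FPKM in every library and were not tested. Thus 4 of the 6 tested members were called higher, where 9.24% of all tested genes were, and 0 were called lower by limma (2.77% of all genes), with 0 lower at an unadjusted p below 0.05 too. The median log2 fold change of the 6 was 1.48. Irf5 passed the filter on low values through the irradiated libraries alone and so had to differ. Of the other 5 tested members 3 were called higher, with a median of 1.58. The counts and medians describe the members tested and not all 8.

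**Figure D1:**
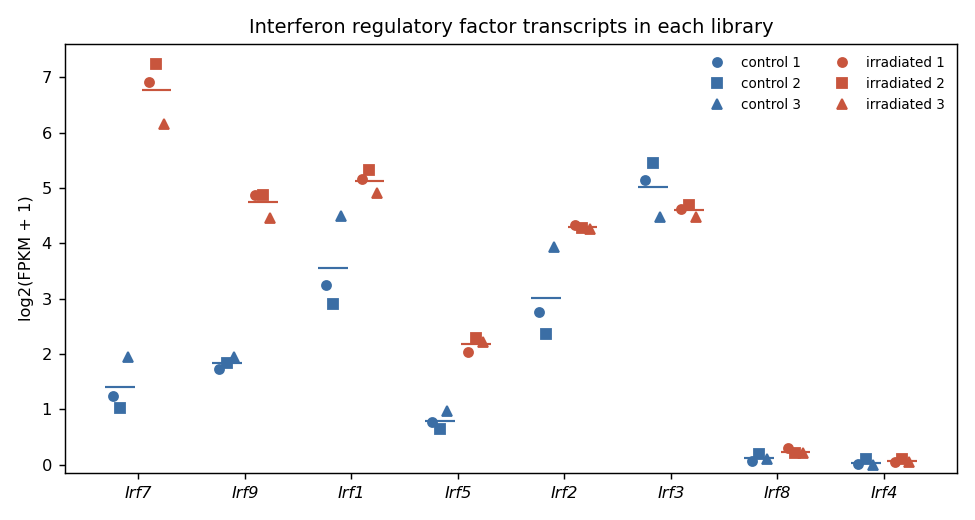
Level of each interferon regulatory factor in each library, on the log2(FPKM + 1) scale; markers are the 6 libraries (circle, square and triangle for samples 1, 2 and 3 of a group), bars the group means. Irf7, Irf9 and Irf5 separate widely, control 3 lies nearest to the irradiated libraries for Irf1 and Irf2, and the groups overlap for Irf3.

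Irf7, the inducible partner of IRF3 that amplifies type I interferon production, changed most within the family (NCBI gene 54123, chromosome 7, 141263183 to 141266499, GRCm38.p6). It measured 1.37, 1.04 and 2.86 FPKM in controls 1, 2 and 3 and 119.82, 150.17 and 70.32 FPKM in irradiated libraries 1, 2 and 3. Every irradiated library lay far above every control, although irradiated library 2 held 2.14 times the level of library 3. The group means were 1.76 ± 0.970 and 113 ± 40.3 FPKM (SD, n = 3 each), a ratio of 64.6. On the log2 scale the difference was 5.36 (SE 0.34, limma adjusted p = 0.000758), the 5th largest rise of all genes tested. The mean level of Irf7 stood above 40.5% of all genes of the table in controls and above 95.1% in irradiated cells.

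Irf9, the DNA-binding subunit of ISGF3, measured 2.32, 2.59 and 2.86 FPKM in the controls and 28.47, 28.27 and 21.10 FPKM in the irradiated libraries (NCBI gene 16391, chromosome 14, 55603985 to 55610030). Its controls were close together, with an SD on the log2 scale below that of all but 11.4% of tested genes, and the groups did not overlap. The means were 2.59 ± 0.270 and 25.9 ± 4.20 FPKM, a ratio of 10.0, and the log2 fold change was 2.90 (SE 0.16, limma adjusted p = 0.000526).

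Irf5, a mediator of inflammatory cytokine expression downstream of MyD88, measured 0.70, 0.56 and 0.96 FPKM in controls and 3.11, 3.87 and 3.63 FPKM in irradiated libraries (NCBI gene 27056, chromosome 6, 29526130 to 29541869). The level stayed low in both groups, and no irradiated library reached down to the controls. The mean went from 0.740 ± 0.203 to 3.54 ± 0.389 FPKM, a ratio of 4.78. The log2 fold change was 1.39 (SE 0.15, limma adjusted p = 0.00398) with a pseudocount of 1 and 2.14 with a pseudocount of 0.1, since the larger pseudocount compresses values near 1 FPKM. Irf5 was called in all 16 settings in which it was tested. With the filter at 1 FPKM its groups had to differ, since it passed through the irradiated libraries alone. It fell below the filter when 5 FPKM was required or an irradiated library was left out. Those omissions are among the 16 only through the setting that kept the full gene set, chosen after seeing the data. With 5 FPKM required, 2 of 5 tested members were called higher, against 5.69% of all genes. Irf5 shares 1043 bases with Tnpo3, a nuclear import receptor gene that measured 28.94 to 37.63 FPKM in controls and 38.34 to 40.79 FPKM in irradiated libraries. Whether counting used strand is not given in the sources used here, so reads of the shared bases could have gone to either gene.

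Irf1, an activator that responds to interferon-gamma and inflammatory signals, measured 8.47, 6.52 and 21.53 FPKM in the controls and 34.74, 39.21 and 29.08 FPKM in the irradiated libraries (NCBI gene 16362, chromosome 11, 53770014 to 53778374). Control 3 held 3.30 times the level of control 2 and still lay below the lowest irradiated library. The means were 12.2 ± 8.16 and 34.3 ± 5.08 FPKM, and the log2 fold change of 1.58 (SE 0.40) passed the threshold narrowly (limma adjusted p = 0.0488). That call was lost in 15 of 20 alternative settings, among them trimmed-mean scaling (adjusted p = 0.0556, with 5.59% of all genes called higher) and the omission of control 1 or 2 (0.179 and 0.0989) or of irradiated library 1, 2 or 3 (0.205, 0.209 and 0.167), while the log2 fold change stayed between 1.26 and 2.06. Without control 3 it was 2.06 (adjusted p = 3.75e-05), where 45.8% of all genes were called higher.

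Irf2, the antagonist of IRF1 at shared sites, measured 5.79, 4.11 and 14.25 FPKM in controls and 19.08, 18.38 and 18.09 FPKM in irradiated libraries (NCBI gene 16363, chromosome 8, 46739745 to 46847458). The irradiated values were nearly equal, the controls spread 3.47-fold, and the groups did not overlap. The log2 fold change was 1.27 (95% interval 0.36 to 2.18, limma adjusted p = 0.0680). The difference was called without control 3 (1.73, adjusted p = 4.42e-05) and with a separate variance weight for each group (adjusted p = 0.0224), where 12% of all genes were called higher.

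Irf3, the constitutive factor that sensors activate first, measured 34.24, 42.72 and 21.33 FPKM in controls and 23.69, 24.78 and 21.22 FPKM in irradiated libraries (NCBI gene 54131, chromosome 7, 44997648 to 45002848). Control 3 sat among the irradiated values and controls 1 and 2 above them. The log2 fold change was -0.43 (95% interval -1.02 to 0.17, limma adjusted p = 0.235), an interval that includes no difference. It was called lower without control 3 (-0.70, adjusted p = 0.00143), where 23.3% of all genes were called lower.

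The members known from immune cells were at the limit of detection. Irf8 (NCBI gene 15900) was listed at 0.04, 0.14 and 0.07 FPKM in controls and at 0.23, 0.15 and 0.15 FPKM in irradiated libraries (chromosome 8, 120736358 to 120756694). Irf4 (NCBI gene 16364) was listed at 0.01, 0.07 and 0 FPKM and at 0.03, 0.07 and 0.03 FPKM (chromosome 13, 30749233 to 30766981). Without the filter on low values neither was called (limma adjusted p = 0.145 and 0.632). At these levels a difference was not detectable, and values are rounded to 2 decimals.

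Groups that do not overlap were found for 5 of the 6 tested members, all higher in irradiated cells, where 31.8% of all tested genes had that pattern. Irf5 had to show it, since it passed the filter through the irradiated libraries alone, and the others were Irf1, Irf2, Irf7 and Irf9. Irf8 had that pattern as well, below the filter.

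**Figure D2:**
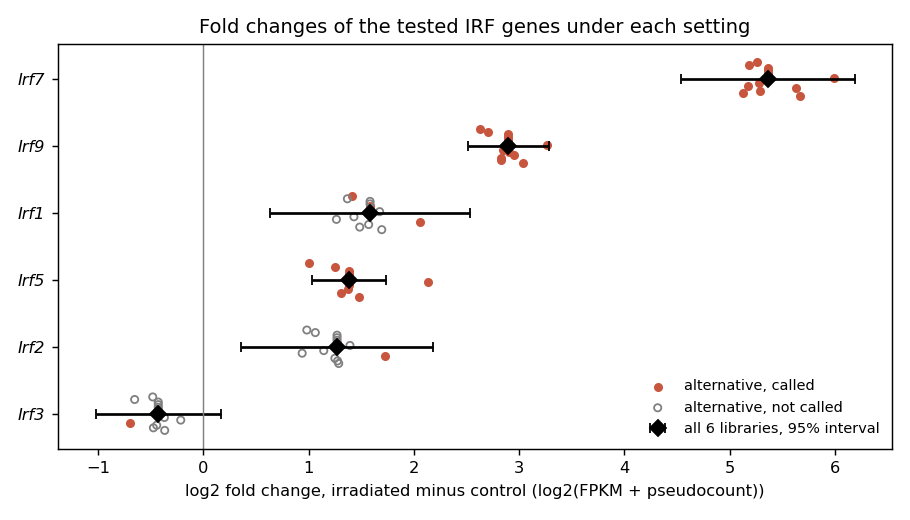
Log2 fold change (irradiated minus control) of the 6 tested members; the diamond and bar give the estimate from all 6 libraries with its 95% interval, filled and open circles the alternative settings in which the gene was or was not called. Irf7 and Irf9 were called throughout, Irf5 wherever it was tested, Irf1 in a minority of settings and Irf2 and Irf3 in few. Irf5 passed the filter through the irradiated libraries alone. The Irf7 estimates run from 5.13 to 5.99.

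Promoter sequence was examined for the motifs through which interferon and inflammatory signals act. The windows, from RefSeq (GRCm38.p6), ran from 250 bases before to 50 bases after each annotated start and covered all 8 members, some with a second start. The ISRE core GAAANNGAAA, the STAT site (GAS) TTCNNNGAA and the NF-kB consensus were searched on both strands, and 3.44%, 8.30% and 8.46% of all 32851 windows held them. Below are the stretches upstream of the start that GENCODE M21 annotates as no exon, 5′ to 3′ on the gene's strand, with motif matches in capitals. They show the pair Irf1 and Irf2, which share GAS and NF-kB matches, Irf7, which held none of the 3 motifs, and the ISRE-bearing target gene Isg15 for comparison.
Irf1: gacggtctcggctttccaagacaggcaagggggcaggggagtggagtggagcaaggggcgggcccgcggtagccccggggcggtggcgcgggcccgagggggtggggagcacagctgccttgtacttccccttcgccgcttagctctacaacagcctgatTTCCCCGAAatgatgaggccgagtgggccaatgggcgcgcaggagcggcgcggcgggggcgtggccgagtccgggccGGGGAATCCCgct
Irf2: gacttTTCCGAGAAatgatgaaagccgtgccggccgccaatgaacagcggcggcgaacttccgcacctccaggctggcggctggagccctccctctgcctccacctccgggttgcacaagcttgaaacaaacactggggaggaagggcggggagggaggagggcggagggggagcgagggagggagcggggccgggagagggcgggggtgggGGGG
Irf7: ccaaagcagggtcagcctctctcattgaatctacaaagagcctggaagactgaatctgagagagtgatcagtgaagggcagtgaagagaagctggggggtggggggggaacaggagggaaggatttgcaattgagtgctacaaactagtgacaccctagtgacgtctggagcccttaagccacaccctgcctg
Isg15: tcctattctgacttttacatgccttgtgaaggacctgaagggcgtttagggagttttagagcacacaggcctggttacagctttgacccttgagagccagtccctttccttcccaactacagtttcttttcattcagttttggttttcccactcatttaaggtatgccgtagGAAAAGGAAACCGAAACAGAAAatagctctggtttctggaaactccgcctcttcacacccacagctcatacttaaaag
The Irf1 stretch (chr11:53769764-53770013, plus strand) held the GAS match TTCCCCGAA from position -90 and the NF-kB match GGGGAATCCC from -13, counted back from the start. The Irf2 stretch (chr8:46739516-46739731, plus strand) held the GAS match TTCCGAGAA from -224. It ends within the NF-kB match GGGGATTTCC, which begins at -17, and an ISRE core GAAAATGAAA lies at -241, just before its first base. The Irf7 stretch (chr7:141266482-141266674, minus strand) had no match, and neither did the rest of its window. The Isg15 stretch (chr4:156200819-156201068, minus strand) held 3 overlapping ISRE cores, from -78, -72 and -66.

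Among the members the ISRE core was thus present for Irf2 alone, GAS for Irf1, Irf2 and Irf8, and NF-kB for Irf1 and Irf2. The Irf2 window overlaps annotated exons too. Its ISRE core lies outside the stretch printed above, and its NF-kB match lies partly outside it. The windows of Irf3, Irf4, Irf5, Irf7 and Irf9 held no match to any of the 3 motifs. Irf7 and Irf9, the members with the largest rises, are among them, but their windows overlap annotated exons. For Irf9 the bases before the gene start (55603735 to 55603984) are all annotated as Irf9 exon, and the window at its other start lies inside the gene. Sequence farther upstream of Irf9 was not searched, so whether its promoter holds these motifs was not tested. The Irf7 window is set at a start inside the gene and is free of exons only up to position -58. The Irf5 window begins at 29526375, inside the gene, so the bases before the gene start (29526130) were not searched. For comparison, 7 of 12 matched target genes of ISGF3, IRF3 and IRF7 held an ISRE core: Bst2, Cxcl10, Ifit1, Ifit3, Isg15, Oas1a and Rsad2. Members and targets were counted per gene, by a match in any of its windows, whereas the share of 3.44% is per window. A match says that the letters are there, not that a factor was bound, and no match covers only these windows.

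The make-up of the IRF transcript pool differed between the groups. The 8 members summed to 52.94, 57.75 and 63.86 FPKM in controls and to 229.17, 264.90 and 163.62 FPKM in irradiated libraries. Irf3 gave 64.7%, 74.0% and 33.4% of the sum in controls 1, 2 and 3 and 10.3%, 9.35% and 13.0% in irradiated libraries 1, 2 and 3. Irf7 gave 2.59%, 1.80% and 4.48% in controls and 52.3%, 56.7% and 43.0% in irradiated libraries. Irf9 moved from 4.38% to 4.48% of the sum in controls to between 10.7% and 12.9% in irradiated libraries. In control 3 Irf1 (33.7%) and Irf3 were about equal, unlike in controls 1 and 2, where Irf3 was ahead of all others.

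**Figure D3:**
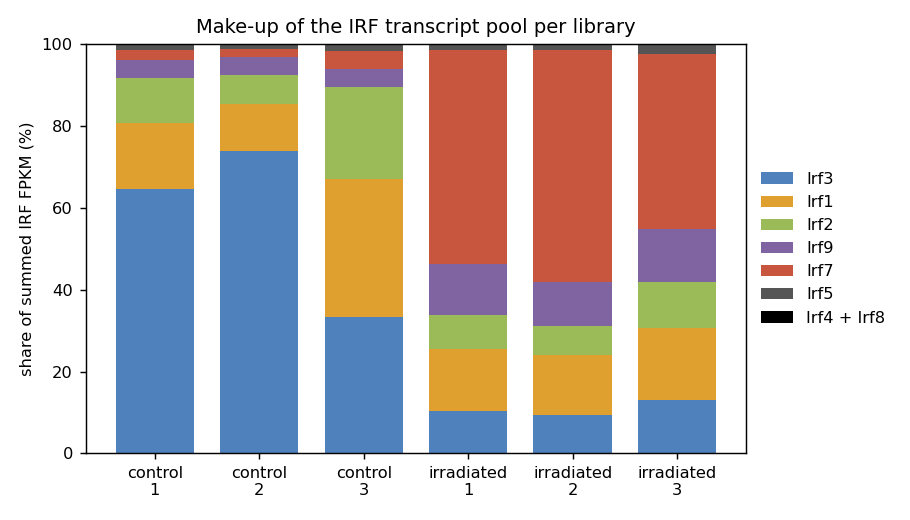
Share of each member in the summed FPKM of the 8 interferon regulatory factors, as stacked bars per library that add up to 100%. Irf3 is the largest block in controls 1 and 2, Irf1 and Irf3 are about equal in control 3, and Irf7 is the largest block in each irradiated library (43.0% to 56.7%).

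By mean level the order in controls was Irf3, Irf1, Irf2, Irf9, Irf7, Irf5, Irf8 and Irf4. The ranges of the libraries overlapped between Irf3 and Irf1, Irf1 and Irf2, Irf9 and Irf7, and Irf8 and Irf4. In irradiated cells the order was Irf7, Irf1, Irf9, Irf3, Irf2, Irf5, Irf8 and Irf4, and only Irf9 and Irf3 had overlapping ranges among neighbours.

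Ratios of genes within a library do not depend on how that library was scaled. The ratio of Irf7 to Irf3 was 0.0400, 0.0243 and 0.134 in controls and 5.06, 6.06 and 3.31 in irradiated libraries, so Irf7 passed from the minor to the major partner in each. The ratio of Irf1 to Irf2 was 1.46, 1.59 and 1.51 in controls and 1.82, 2.13 and 1.61 in irradiated libraries. It varied little among controls in which each gene varied more than 3-fold, and the lowest irradiated ratio lay barely above the highest control. The ratio of Irf9 to Stat2, its partner in ISGF3, was 0.746, 0.744 and 0.468 in controls and 0.783, 0.624 and 0.863 in irradiated libraries, and the groups overlapped. Exact two-sided permutation tests of the log2 ratios gave p = 0.1, 0.1 and 0.5 (0.15, 0.15 and 0.5 adjusted over the 3 ratios), and 0.1 is the smallest p that 3 against 3 samples allow.

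The members differed in how far libraries of one group varied. On the log2(FPKM + 1) scale Irf7 had an SD of 0.56 among irradiated libraries, more than 99.6% of tested genes, and Irf9 and Irf1 had 0.24 and 0.21 (more than 95.2% and 93.2%). Irf2 had 0.04, more than 14.5% of genes. Among controls Irf1 and Irf2 had the widest spread, 0.83 and 0.82, more than 95.2% and 94.7% of genes. Irf1, Irf3 and Irf7 were highest in irradiated library 2 and lowest in library 3, an order that 19.4% of all tested genes had. Among the target genes of ISGF3, IRF3 and IRF7, 13 of 16 had that order, and so had 11 of 15 IRF1 targets, and Stat2. What set it was not tested.

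Genes with the most similar profiles were ranked by the root-mean-square (RMS) difference over the 6 libraries of log2(FPKM + 1) values centred on each gene's mean. The profile of Irf7 was nearest to those of Oasl2 (0.17), Ifit1 (0.23) and Usp18 (0.26), against a median of 2.63 over all genes. That of Irf9 was nearest to Ddx60 (0.17), Iigp1 (0.18) and Parp14 (0.19). Irf1 was nearest to Tor3a (0.07), Tnfaip3 (0.09) and Ampd3 (0.10), and Tor3a measured 8.51, 6.46 and 20.50 FPKM in controls and 32.35, 42.32 and 28.86 in irradiated libraries, almost the values of Irf1 itself. Irf2 was nearest to Hsdl2 (0.05), Zfp365 (0.05) and Trio (0.06), Irf5 to Lyz2 and Serpinb9g (0.08 each) and Parp11 (0.09), and Irf3 to Mif (0.03), Adck5 (0.04) and Tspan9 (0.05). Of these genes, Usp18, Ddx60, Iigp1, Parp14, Lyz2 and Serpinb9g were below 1 FPKM in every control. They passed the filter through the irradiated libraries alone, as Irf5 did, so their groups had to differ. The distances describe 6 libraries in 2 groups and carry no test.

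Upstream of the IRFs, RNA sensors rose and the IRF kinases Tbk1 and Ikbke did not pass the test. Of 18 sensors, adaptors and kinases tested, 5 were called higher and 0 lower, with a list median log2 fold change of 0.45, against 9.24% and 0.17 for all genes. The count was 3 without control 1, where 1.48% of all genes were called higher, and 13 without control 3, where 45.8% were. It was 1 without irradiated library 1 or 2, against 0.424% and 0.507%. The RNA sensor Ddx58 (RIG-I) measured 7.85, 5.89 and 14.46 FPKM in controls and 64.22, 68.26 and 53.72 in irradiated libraries (2.68, SE 0.30, limma adjusted p = 0.00452). Its relatives Ifih1 (MDA5) and Dhx58 (LGP2) had log2 fold changes of 3.55 and 2.03, and Ticam1, the adaptor TRIF, and its receptor Tlr3 of 0.96 and 1.53. Tlr3 is named as the remaining call of the list, after its value was seen. Tbk1, the kinase of IRF3 and IRF7, measured 14.58, 11.03 and 19.28 FPKM in controls and 25.23, 24.21 and 24.31 in irradiated libraries, groups that did not overlap but missed the threshold (0.71, limma adjusted p = 0.0605). Ikbke, which encodes IKK-epsilon, ranged from 4.27 to 6.21 FPKM in controls and from 5.32 to 6.58 in irradiated libraries (0.22, limma adjusted p = 0.351).

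The interferon genes themselves were hardly detected. Of 13 on the list, 3 had a row in the table, and each stayed below 1 FPKM in every library. Ifnb1, the target that IRF3 and IRF7 are best known for, was listed at 0 in the 3 controls and at 0.51, 0.26 and 0 FPKM in irradiated libraries 1, 2 and 3.

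Among interferon receptors, JAK kinases and Stat2, 1 of 8 tested genes (Stat2) was called higher and 0 lower (list median 0.52). That share is near the 9.24% of all genes. Groups did not overlap, with irradiated higher, in 6 of the 8, against 31.8% of all tested genes. The count of genes called higher was 7 without control 3 and 0 without irradiated library 1, against 45.8% and 0.424% of all genes. Stat2 measured 3.11, 3.48 and 6.11 FPKM in controls and 36.37, 45.32 and 24.46 in irradiated libraries (2.80, SE 0.29, limma adjusted p = 0.00398). Irf9 and Stat2, partners in ISGF3, were thus both called higher. Among IRF cofactors, 3 of 10 tested genes were called higher and 0 lower (list median 0.13), against 9.24% of all genes called higher. The 3 were Trim21, a ubiquitin ligase (2.04), Irf2bpl (1.25) and Irf2bp2, a corepressor of IRF2 (0.47). The call of Irf2bp2 lay at the threshold (limma adjusted p = 0.04995). The cofactor count fell to 0 without control 1 or irradiated library 1 or 2, against 1.48%, 0.424% and 0.507% of all genes. It fell to 1 without control 2 or irradiated library 3, against 4.01% and 0.782%. Without control 3, 4 cofactors were called higher and 4 lower, where 45.8% and 23.3% of all genes were.

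Of the textbook targets of ISGF3, IRF3 and IRF7, 15 of 16 tested were called higher and 0 lower. The list median was 4.44, against 9.24% called higher and a median of 0.17 for all genes. Ifi44, Oas2, Rsad2 and Usp18, named after their values were seen, passed the filter through the irradiated libraries alone and so had to differ; of the other 12 genes 11 were called higher, with a median of 4.10. Bst2 (tetherin) and Isg15 rose by 3.07 and 5.04, Ccl5 by 3.79 and Rtp4 by 5.79. Of the textbook targets of IRF1, 8 of 15 tested were called higher and 0 lower, with a median of 0.89, against the same 9.24% and 0.17. Cd274 and Nos2 passed the filter through the irradiated libraries alone, and 6 of the other 13 genes were called higher, with a median of 0.79. The count of 8 was 2, 7 or 11 without control 1, 2 or 3, against 1.48%, 4.01% and 45.8% of all genes. It was 0, 0 or 2 without irradiated library 1, 2 or 3, with 13 genes tested, against 0.424%, 0.507% and 0.782%. The 8 included Gbp2, a guanylate-binding protein (2.87), B2m, the light chain of MHC class I (1.64), and the immunoproteasome subunits Psmb8 and Psmb9 (0.90 and 0.77). The lists overlap in regulation, since IRF1 and ISGF3 bind related sequences, and both were chosen with earlier results of these data known. Across these 5 lists with tested genes, 32 of 67 genes were called higher and 0 lower, and 26 of 61 once the 6 genes that passed through the irradiated libraries alone were set aside. Without control 1, 2 or 3 the count was 20, 28 or 51, against 1.48%, 4.01% and 45.8% of all genes tested. Without irradiated library 1, 2 or 3 it was 11, 12 or 19, against 0.424%, 0.507% and 0.782%.

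**Figure D4:**
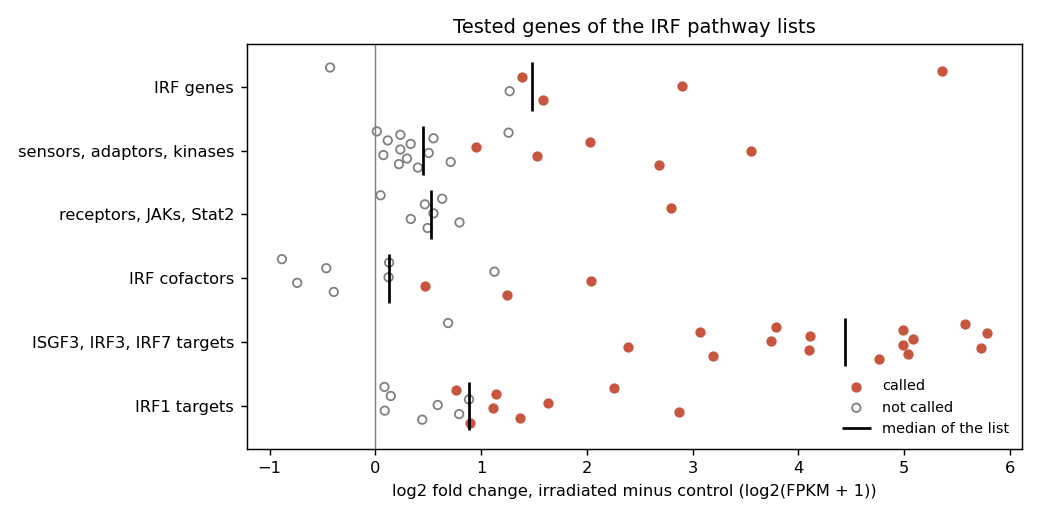
Log2 fold change (irradiated minus control) of each tested gene of 6 lists; filled points were called, open points were not, and the vertical bar is the list median. The target list of ISGF3, IRF3 and IRF7 lies farthest to the right (median 4.44), and cofactors lie on both sides of 0 (median 0.13).

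Markers of immune cells, which carry high levels of several IRFs, were near 0. Of 16 such markers 12 had a row, and 11 of these stayed below 1 FPKM in every library. Their summed level was 1.54 to 1.90 FPKM in controls and 3.69 to 4.41 in irradiated libraries. The exception was Lyz2, a lysozyme gene that measured 0.52, 0.30 and 0.78 FPKM and then 2.37, 3.53 and 3.36 FPKM (log2 fold change 1.41, limma adjusted p = 0.00745). It too passed the filter through the irradiated libraries alone. Ptprc (CD45), the defining marker of blood cells, was listed at 0 in controls and at no more than 0.03 FPKM in irradiated libraries. In a bulk sample, a different number of cells that express a gene and a different level per cell cannot be told apart. Markers of squamous epithelium were mostly low too: 8 of 13, among them Krt5, Krt14, Epcam and Cdh1, stayed below 1 FPKM in every library, and Trp63 reached 1.10 FPKM in control 3 and at most 0.21 elsewhere. The simple epithelial keratins Krt8 and Krt18 were abundant, at 371 to 1361 and 100.26 to 528 FPKM, and Krt18 was called lower in irradiated cells (-1.82, limma adjusted p = 0.0261).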

How the data were processed

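Total RNA of 3 control and 3 irradiated samples of SCC7 cells was sequenced after DNase I treatment and removal of ribosomal RNA, per the labels' protocols. The authors deposited 1 table of FPKM values for 17030 genes, given to 2 decimals. HISAT and the build GRCm38.p6 are listed in the submitters' processing notes, and the counting tool is not given in the sources used here. Gene IDs matched RefSeq for 16976 genes. Reads per library are unknown, so no counting error is given.

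Groups came from the treatment labels. The 11103 genes that reached 1 FPKM in 3 or more libraries were log2-transformed with a pseudocount of 1 and compared by limma 3.58.1 (R 4.3.3) in a 2-group model with trended, robust variance moderation and Benjamini-Hochberg adjustment over all genes tested. Ratios of genes were compared with exact permutation tests over samples. The procedure was tested on simulated data that gave each gene the same SD in both groups. Here controls varied more than irradiated libraries, so that test does not cover the unequal spread of these data. The members and lists were chosen with earlier results of these data known. From each list the called genes with the highest mean level, at most 4, were named, with Stat2, Tbk1, Ikbke, Ifnb1, Trp63 and Ptprc whatever their values. Profile likeness used the 3 nearest tested genes, without predicted symbols. Alternatives were quantile and trimmed-mean scaling, no filter or 5 FPKM, a pseudocount of 0.1, limma without trend and robust options or with group weights, a replicate block, and leaving out each library; repeating the last with the full gene set was chosen after seeing the data. A further family member and 1 pathway gene are not reported here and were left out of the lists.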

Additional observations from a re-analysis of the deposited data

How the results depend on the processing

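Irf7 and Irf9 were called higher in all 20 alternatives (log2 fold changes 5.13 to 5.99 and 2.63 to 3.27), and no member changed direction in any. The count of members called higher was 4 with all libraries, against 9.24% of all genes. It was 2 with a filter at 5 FPKM, where 5 members were tested and 5.69% of all genes were called higher. With 1 library left out it was 2 to 5, against 0.424% to 45.8% of all genes. The count of 5 and the share of 45.8% were those without control 3. The count of members called lower was 0, and 1 (Irf3) without control 3, where 23.3% of all genes were called lower. Pathway genes called higher numbered 32 with all libraries and 11 to 51 with 1 left out, against the same shares of all genes. Those called lower went from 0 to 5 without control 3, against the same 23.3%. A setting chosen after seeing the data kept the genes that pass the filter in all libraries. Among them are Irf5 and 6 pathway genes that passed through the irradiated libraries alone, so their groups had to differ. With these included, the omissions gave 3 to 5 members and 20 to 51 pathway genes called higher, against 1.48% to 45.8% of all genes. The cause of these differences was not tested. Of all genes, 1026 were called higher and 308 lower, against 663 and 564 with quantile and 621 and 590 with trimmed-mean scaling. Samples with the same number did not deviate together (r = -0.11, 0.02 and -0.16), so the numbers were not taken as pairs. With the number as a replicate block, 260 genes were called higher and 40 lower, with 3 members (Irf5, Irf7 and Irf9) and 25 pathway genes among those higher, of which 4 were IRF1 targets and 1 was a cofactor. Unknown depth limits what can be said of Irf4, Irf8 and the interferon genes.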
